A study of Mus musculus with 2 samples.

Results

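The nuclei described here were 134 barcodes of the day 1 post-fracture snRNAseq library that carried RNA of genes induced in injured muscle fibers, out of 2405 filtered barcodes (5.57%, exact Clopper-Pearson 95% interval 4.69 to 6.56) and 48987 barcodes in all. They were selected on their measured counts of UMIs (unique molecular identifiers, each standing for a captured RNA molecule). A barcode was taken when it passed the filters (200 to 5000 genes, less than 0.5% of UMIs from mitochondrial and less than 2.5% from ribosomal protein genes) and had at least 2 UMIs over the 6 injury genes Ankrd1, Xirp1, Atf3, Nes, Mustn1 and Sox4, under 8% of its UMIs in the 6 contractile genes Ttn, Neb, Ckm, Myh1, Myh4 and Acta1, and under 2 UMIs over the 5 immune genes Ptprc, Dock2, Vav1, Adgre1 and Csf3r. The library came from the periosteum and hematoma of C57BL6 mice aged 10 to 14 weeks, males and females mixed, 1 day after an open, non-stabilized tibial fracture, from sorted nuclei pooled from 3 or 4 mice. A second library of the series came from the callus of mice of the same strain 5 days after musculoskeletal traumatic injury (MTI), a model of non-union in which the muscles around the fractured tibia were also compressed. With 1 pooled library per condition there were no replicates, so no test was made and every interval given here covers counting error only.

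In muscle fibers, contraction is carried by sarcomeres, in which the giant protein titin spans from the Z-disc to the middle of the unit. When a fiber is stretched, torn or denervated, nuclei switch on a set of genes whose products bind the Z-disc and titin, cross-link actin at sites of damage and refold or clear unfolded proteins. Ankrd1 encodes a titin-binding ankyrin repeat protein of this kind, Xirp1 and its relative Xirp2 encode actin-binding proteins found at damaged sarcomeres and fiber ends, Nes encodes the intermediate filament nestin, and Atf3 encodes a stress-induced transcription factor. Tissue around a fracture contains torn fibers, and a suspension of nuclei from it also contains RNA that leaked from broken fibers into the droplets.

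The chosen nuclei all had a UMI of Ttn, itself a gene of the rule. So did 92.6% of all other filtered barcodes and 76.0% of the barcodes under 200 genes. Of the 134 nuclei, 119 had a UMI of Dmd, the gene of dystrophin, which links the cytoskeleton of the fiber to its membrane. The share of UMIs in the 6 contractile genes was limited by the rule in these nuclei and is a description. The 43464 barcodes under 200 genes, used here as a measure of RNA free in the droplets although shallow nuclei may be among them, had 4.20% of their UMIs in the 6 contractile genes, against 4.16% in the chosen nuclei, 3.17% in the 1703 other filtered barcodes within the same contractile and immune limits (called same-limits barcodes below) and 12.1% in the 510 filtered barcodes over the contractile limit (called contractile-rich barcodes). The share ranged from 0.203% to 7.97% among the 134 nuclei and was below the pooled share of the barcodes under 200 genes in 69 of them. As a median per barcode, it was 4.15% in the chosen nuclei, 2.90% in the same-limits barcodes and 4.15% in all other filtered barcodes. In the barcodes under 200 genes, which were not limited by the rule and held far fewer UMIs each, the median was 1.43%. Dmd stood higher, at 6194 CPM against 4157 CPM in the barcodes under 200 genes, a ratio of 1.49 (1.36 to 1.63). Whether the muscle RNA was that of the nuclei themselves was not tested, and they are called injury-gene nuclei here, after the genes that chose them. The limit lay within a continuous range, with 12 of the nuclei between 7% and 8% and 14 filtered barcodes with at least 2 injury UMIs between 8% and 9%.

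The injury genes summed to 478 UMIs in the injury-gene nuclei, or 5969 per 1000000 UMIs (CPM, 5446 to 6529). They summed to 326 CPM (287 to 368) in the same-limits barcodes, which by the rule held at most 1 injury UMI each, to 768 CPM (672 to 874) in the contractile-rich barcodes and to 399 CPM (385 to 415) in the barcodes under 200 genes. The values of the injury-gene nuclei and of the same-limits barcodes were set by the rule. Ankrd1 gave 342 of the 478 UMIs and was found in 118 nuclei. It had at least 2 UMIs in 106 nuclei and 12 UMIs in the nucleus with the highest count. Atf3 gave 57 UMIs in 19 nuclei, Nes 30 in 15, Xirp1 23 in 21, Mustn1 (which encodes a small nuclear protein of muscle and skeletal tissue) 15 in 14 and Sox4 (a transcription factor of many immature cells) 11 in 6. The choice was thus mostly a choice on Ankrd1. Most nuclei, 84, held RNA of only 1 of the 6 genes, 41 held 2 and 9 held 3. Ankrd1 occurred with Xirp1 in 13 nuclei, with Atf3 in 10 and with Nes in 7.

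**Figure D1:**
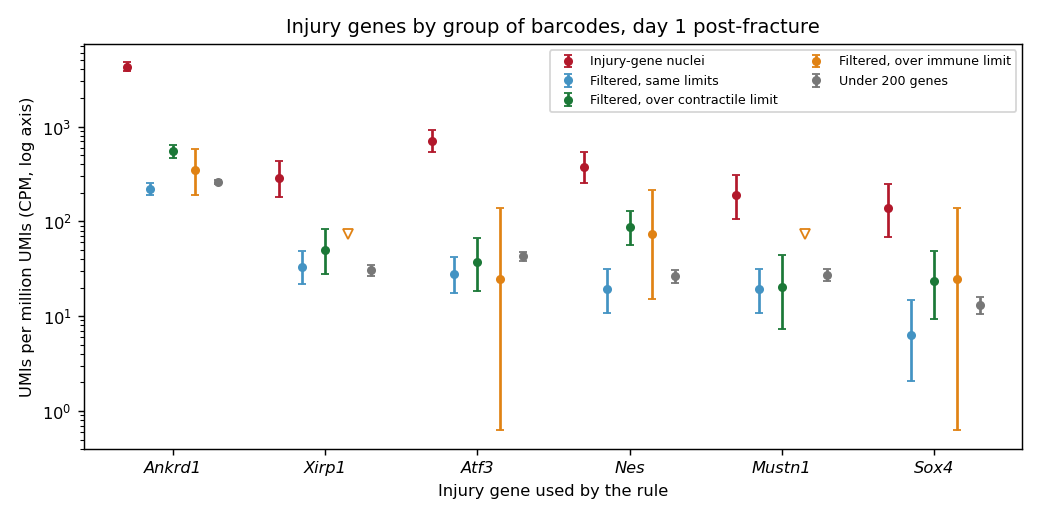
CPM (log axis) of the 6 injury genes in 5 groups of barcodes of the day 1 library, with exact Poisson 95% intervals; open triangles mark the limit of 3 UMIs that a count of 0 allows. Ankrd1 stood at 4271 CPM in the injury-gene nuclei, at 550 CPM in the contractile-rich barcodes and at 260 CPM in the barcodes under 200 genes.

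The numbers near the threshold were as follows. Just inside it, 52 nuclei had exactly 2 injury UMIs, 34 had 3, 22 had 4 and the nucleus with the most had 16. Just outside, 255 barcodes had 1 injury UMI, and 1448 had none. The contractile-rich barcodes, which the rule left out, were taken whatever their immune-gene UMIs. Of these 510, 48 (9.41%, 7.02 to 12.3) had at least 2 injury UMIs. So did 4 of the 58 filtered barcodes under the contractile limit but over the immune limit (called barcodes over the immune limit), and 209 of the 43464 barcodes under 200 genes (0.481%, 0.418 to 0.550). The latter had a median of 148 UMIs per barcode, against 484.5 in the injury-gene nuclei, so the shares were measured at different depths.

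Depth moved with the choice. The injury-gene nuclei held 269 to 3854 UMIs each and 80083 in all, with a median of 310.5 genes. The same-limits barcodes had a median of 381 UMIs and the contractile-rich barcodes one of 476 UMIs. Of the filtered barcodes under 300 UMIs, 1.86% (0.606 to 4.28) were injury-gene nuclei, against 7.14% (5.10 to 9.67) of those with 400 to under 500 UMIs and 11.8% (6.05 to 20.2) of those with 1000 or more. A nucleus of low depth had fewer chances to show 2 injury UMIs at the same CPM.

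**Figure D2:**
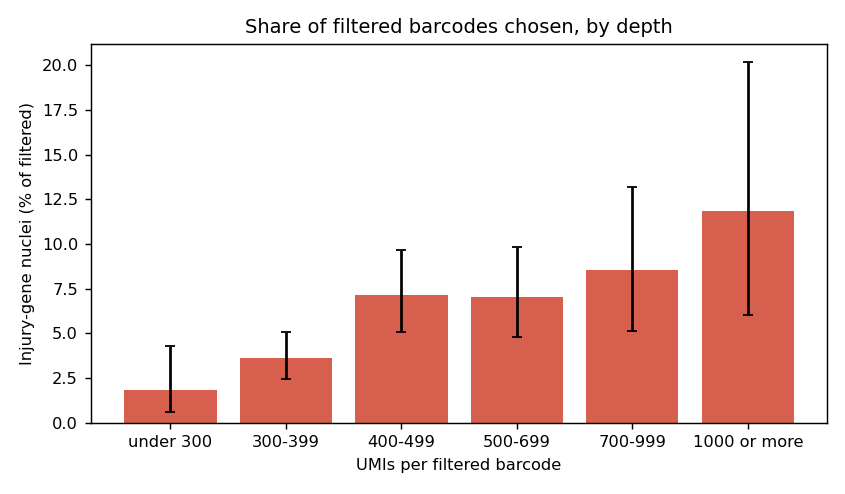
Injury-gene nuclei as a percentage of the filtered barcodes in 6 classes of UMIs per barcode, with exact Clopper-Pearson 95% intervals. The share was 1.86% below 300 UMIs and 11.8% from 1000 UMIs on, with overlapping intervals among the 4 classes from 400 UMIs on.

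Malat1, a long non-coding RNA retained in the nucleus and so a measure of how much of the RNA was nuclear, also moved with it. It took 11.7% of the UMIs of the injury-gene nuclei, 11.2% of those of the contractile-rich barcodes, 6.32% of those of the same-limits barcodes and 3.64% of those of the barcodes under 200 genes. Gm42418, which overlaps ribosomal RNA sequence, took 8.89%, 9.14%, 10.7% and 19.1% in the same groups. Along the injury UMIs, Malat1 took 5.98% in barcodes with none, 8.02% with 1, 9.37% with 2 and 12.9% with 3 or more. Ratios were therefore also computed against same-limits barcodes weighted to the Malat1 share of the injury-gene nuclei, and are given so below for the genes and lists most concerned.

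Outside the genes of the rule, several genes of the sarcomere and of its repair were among those with the clearest differences. Xirp2 had 472 UMIs in the injury-gene nuclei, 5894 CPM (5374 to 6450), against 1354 CPM in the same-limits barcodes, a ratio of 4.35 (3.90 to 4.85). Flnc, which encodes the Z-disc actin cross-linker filamin C, had 1299 CPM (1061 to 1574) against 331 CPM, a ratio of 3.93 (3.10 to 4.95). Nrap, whose product anchors actin during the assembly of myofibrils, had 1074 CPM against 365 CPM, a ratio of 2.94 (2.28 to 3.76). Klhl40, which encodes a kelch protein that stabilizes nebulin on the thin filament, had a ratio of 4.28 (2.43 to 7.29) from 21 UMIs. Of these UMIs, 11 were in the 16 nuclei without Ankrd1. These ratios are set against the whole transcriptome by 236 of 3945 genes (5.98%) that had a ratio of at least 2 and 609 (15.4%) that had one of at most 0.5, where a gene at the limit of 50 UMIs was expected to have 3.33 UMIs in the injury-gene nuclei. Among the 653 genes with at least 200 UMIs, 25 (3.83%) had a ratio of at least 2 and 46 (7.04%) one of at most 0.5, so that many of the 236 were genes with few UMIs. Of the 236, 53 reached 50 UMIs only with those of the injury-gene nuclei, so a high ratio was partly built into their passing the filter. Against same-limits barcodes weighted for Malat1 share, 167 genes had a ratio of at least 2 in place of 236.

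Xirp2 and Flnc stood higher in nuclei with more injury UMIs. Xirp2 stood at 1279 CPM in barcodes without an injury UMI, 1726 CPM with 1, 4158 CPM with 2 and 6847 CPM with 3 or more. A few nuclei carried much of this, with 47 of the 118 Xirp2 UMIs at 2 injury UMIs in 1 nucleus and 188 of the 354 at 3 or more in 3 nuclei. Flnc followed the same order with 302, 472 (362 to 604), 916 (598 to 1342) and 1509 CPM (1193 to 1883). The intervals of its last 3 values overlapped from each to the next. Nrap stood at 321, 586, 1127 and 1044 CPM, so that its last 2 values were alike within their intervals (771 to 1592 and 785 to 1363). At an equal depth of 300 UMIs per barcode, Xirp2 was found in 45.7% of 129 injury-gene nuclei and 25% of 1448 same-limits barcodes. It was found in 31.3% of 504 contractile-rich barcodes and 23.6% of 55 barcodes over the immune limit. The last group was set by UMI limits alone and was not shown to be immune cells. Before thinning, 94.8% of its 58 barcodes held a UMI of Ttn, so it is no background free of muscle RNA. The shares with Xirp2 before thinning were 58.2%, 31.3%, 44.9% and 36.2% in the same order of groups, at median depths of 484.5, 381, 476 and 482.5 UMIs. For Flnc the thinned shares were 26.4%, 8.49%, 15.1% and 7.27%, and for Nrap 19.4%, 10.3%, 22.0% and 9.09%. In the contractile-rich barcodes, Nrap was thus found at least as often as in the injury-gene nuclei, and Xirp2 and Flnc less often, without a test of the difference.

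The sequences upstream of Xirp2 and Klhl40 are shown because, among the genes of the rule and the 25 genes with the clearest higher level, they were the 2 that held the AP-1 motif TGANTCA, the motif bound by factors of the Fos, Jun and Atf families. Of these 31 genes, 24 had a start site in the RefSeq table of build GRCm38.p6. Each line gives the 250 bases before the start site on the strand of the gene, at chr2:67445752-67446001 (plus strand) for Xirp2 and chr9:121777357-121777606 (plus strand) for Klhl40, with the motif in capitals.
Xirp2: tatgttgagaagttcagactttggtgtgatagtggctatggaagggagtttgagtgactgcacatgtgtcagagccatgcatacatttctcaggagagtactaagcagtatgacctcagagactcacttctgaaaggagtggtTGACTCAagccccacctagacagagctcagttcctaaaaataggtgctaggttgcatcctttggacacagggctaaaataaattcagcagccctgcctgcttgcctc
Klhl40: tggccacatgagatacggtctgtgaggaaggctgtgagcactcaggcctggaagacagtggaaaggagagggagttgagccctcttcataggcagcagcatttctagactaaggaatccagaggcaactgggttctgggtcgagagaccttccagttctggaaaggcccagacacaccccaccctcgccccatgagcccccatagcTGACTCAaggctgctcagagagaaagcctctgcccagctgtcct
The motif lay 107 to 101 bases before the start site of Xirp2 and 44 to 38 bases before that of Klhl40. Searched on both strands, TGANTCA was in 2 of the 24 genes (8.33%) and in 6.75% of 32817 promoters of the same length. The TEAD motif CATTCC was in 4 genes (16.7%), Ankrd1 and Flnc among them, against 12.6% of promoters. The E-box CANNTG was in 13 (54.2%) against 66.2%, and TATAAA in 0 against 12.4%. These are counts of letters in a window and describe no binding.

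The other genes with the clearest higher level belonged to several functions. Of the chaperones and protein clearance, Hspb8, a small heat shock protein of chaperone-assisted autophagy, had a ratio of 3.96 (2.11 to 7.11) from 17 UMIs. Cryab, a small heat shock protein that binds desmin and titin, had one of 3.70 (1.85 to 7.01) from 14 UMIs, and Sqstm1, the autophagy receptor p62, one of 3.60 from 14 UMIs. Neither stayed above 2 under all settings, Cryab having 1.51 with a contractile limit of 4% and Sqstm1 1.69 without Atf3 and Sox4 in the rule. Of the cytoskeleton and adhesion, Actg1, which encodes a non-muscle actin, had 3.05 (2.11 to 4.32) from 43 UMIs and Itgb1, which encodes the integrin beta 1 chain, 2.90 (2.11 to 3.92) from 56 UMIs. Lmcd1, a LIM domain co-regulator of muscle, had 3.01 (1.90 to 4.64) from 28 UMIs. Of transport and metabolism, the amino acid transporter gene Slc38a2 had 3.58 (2.59 to 4.89) from 56 UMIs, the taurine transporter gene Slc6a6 had 2.73, the metallothionein gene Mt1, whose product binds zinc, 3.22 (1.96 to 5.11) and Sat1, which encodes an enzyme of polyamine breakdown, 2.93. Ssb, which encodes an RNA-binding protein, Bclaf1, Uck2, which encodes a kinase of pyrimidine salvage, and Gnl3, which encodes a nucleolar GTPase, ran from 2.62 to 4.08 with 10 to 38 UMIs each. The remaining genes were Ywhaz (3.91), Golgb1 (2.95), Rras2 (4.35), Tshz1 (3.70), Adcy9 (2.68), Egr1 and Malat1 itself (1.85). Of the 25, Egr1, Rras2, Tshz1 and Gnl3 reached the limit of 50 UMIs only with those of the injury-gene nuclei.

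Of these 25 genes, 24 had a ratio of at least 2 against the same-limits barcodes, by which they had been chosen. The counts against the other groups use the same 134 nuclei, so nothing is read from them. Against all 2271 other filtered barcodes, 24 did as well, where 5.27% of all genes did. Against the barcodes under 200 genes, 24 did, where 9.25% of all genes did, with a median ratio of 3.45. Against the contractile-rich barcodes, 17 did, where 14.4% of all genes did, with a median of 2.32. Xirp2 (4.16), Slc38a2 (2.74) and Flnc (2.32) stayed above 2 there, while 8 genes did not, among them Nrap (1.20), Itgb1 (1.52), Adcy9 (1.48) and Malat1 (1.04). Against the same-limits barcodes weighted for Malat1 share, an alternative added after the data had been seen, 22 of the 25 did. Xirp2 then had a ratio of 2.76, Flnc 2.53, Klhl40 2.61, Nrap 1.99, Lmcd1 1.89 and Malat1 1.05.

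**Figure D3:**
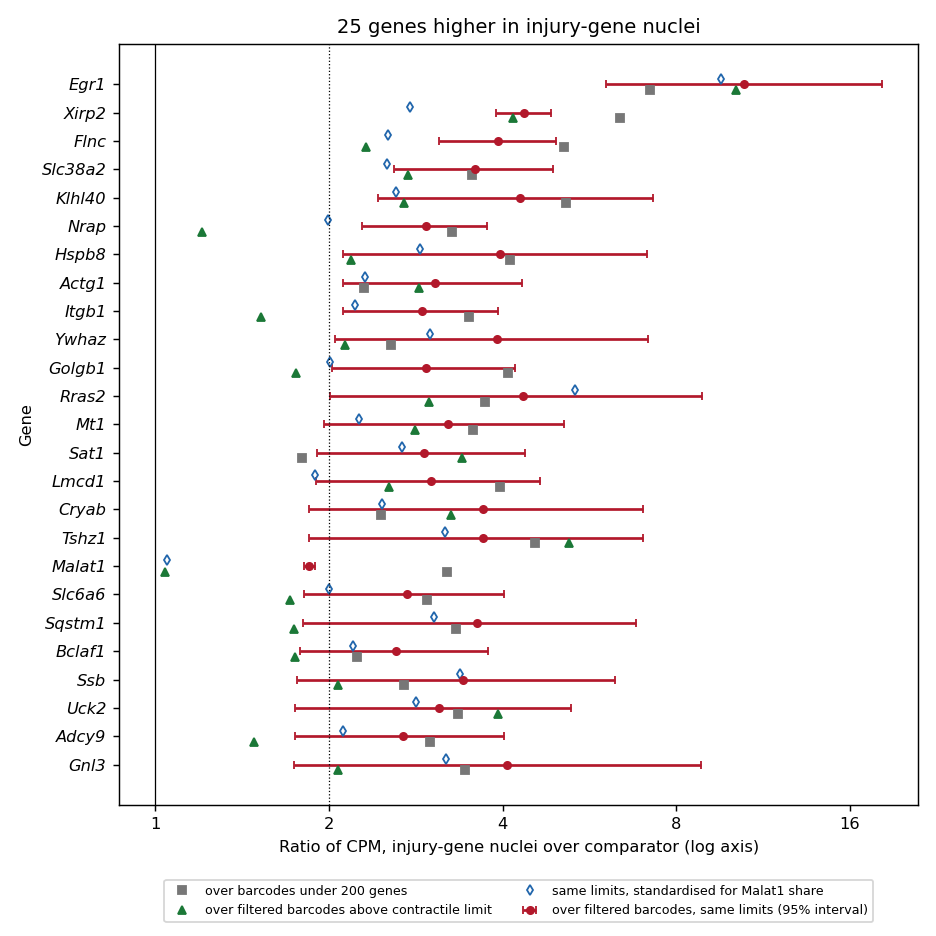
Ratio of CPM (log axis) of the 25 genes with the highest lower limit, injury-gene nuclei over same-limits barcodes (circles, exact 95% intervals), over barcodes under 200 genes (squares), over contractile-rich barcodes (triangles) and over same-limits barcodes weighted for Malat1 share (open diamonds). The dotted line marks a ratio of 2; Nrap and Malat1 lay at 1.20 and 1.04 over the contractile-rich barcodes.

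The list of sarcomere strain and repair held Xirp2, Flnc and other genes named above. Of its 28 genes, 19 had at least 50 UMIs over the filtered barcodes, and 8 of these (Xirp2, Flnc, Lmcd1, Klhl40, Hspb8, Cryab and, named after their values were seen, Ankrd2 and Synpo2l) had a ratio of at least 2, where 5.98% of all genes did, and none had one of at most 0.5. The median was 1.82, where that of all 3945 genes was 0.952. Ahnak and Dysf, which encode membrane repair proteins, had ratios of 1.82 (1.48 to 2.21) and 1.84 (1.32 to 2.51). The summed ratio of the list was 2.77 (2.58 to 2.98), and 2.08 (1.89 to 2.29) without Xirp2. Weighted for Malat1 share it was 1.97. Against the contractile-rich barcodes it was 2.18 (2.02 to 2.36), below the sums of the immediate early genes (2.40) and of 2 lists of few UMIs, the satellite cell (2.90) and skeletal stem/progenitor cell (4.47) markers.

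Of 24 genes of fiber structure outside the rule that passed the filter, 2 had a ratio of at least 2, where 5.98% of all genes did. These were Nrap and, named after its value was seen, Tnnc2 (2.35 from 6 UMIs), which reached the filter only with the UMIs of the injury-gene nuclei. The median was 1.10. Dmd had 1.22, Ryr1, the calcium release channel gene, 1.24, and Trdn, the gene of its partner triadin, 0.975. Summed, the list stood at 1.18 (1.11 to 1.25) over the same-limits barcodes, 1.28 (1.21 to 1.35) over the barcodes under 200 genes and 0.520 (0.490 to 0.552) over the contractile-rich barcodes. Weighted for Malat1 share, the first of these was 0.903. Genes of fiber energy metabolism had a summed ratio of 0.851 (0.703 to 1.02), with 0 of 12 at a ratio of at least 2.

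Among the programs of injured fibers, the atrophy list had 4 of 10 genes at a ratio of at least 2, where 5.98% of all genes did. These were Trim63, a ubiquitin ligase of the sarcomere, with 2.22 (1.67 to 2.92) from 65 UMIs, Pdk4, a kinase that restrains glucose oxidation, with 2.72 (1.62 to 4.42), Mt1 and, named after its value was seen, Mt2 (2.45). Fbxo32, the other well-known ubiquitin ligase of atrophy, had 1.18 (0.768 to 1.75), and 1 gene, Foxo1, stood at 0.326 from 2 UMIs. The summed ratio was 1.70 (1.45 to 1.99), and 1.26 weighted for Malat1 share. In the denervation and endplate list, Runx1, which is induced in denervated muscle, had 1.73 (1.19 to 2.47), while Hdac9 had 0.551 (0.333 to 0.864) and Chrnb1, which encodes a subunit of the acetylcholine receptor and was named after its value was seen, 2.26 from 6 UMIs. The sum was 1.19 (0.981 to 1.43). The myogenic regulators had 0 of 6 at a ratio of at least 2 and a sum of 1.19 (0.982 to 1.42), which was 0.894 weighted for Malat1 share.

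In the list of serum response factor and YAP-TEAD genes, which respond to actin dynamics and stretch, 2 of 11 had a ratio of at least 2, Actg1 and, named after its value was seen, Tead4 (2.48, 1.34 to 4.35). Tead1 had 1.29 (0.941 to 1.74), and the sum was 1.42 (1.21 to 1.65). Of the heat shock genes 1 of 6 did, Hsp90aa1 with 2.87 (1.70 to 4.67), and the sum was 1.65 (1.30 to 2.07). Of the integrated stress genes 1 of 3 did, Atf4, the central factor of that response, with 2.34 (1.26 to 4.08), and the sum was 1.41 (1.07 to 1.84). Weighted for Malat1 share, these 3 sums were 1.22, 1.40 and 1.17. The cytokine and NF-kB list had 0 of 10 at a ratio of at least 2 and 3 at one of at most 0.5, Nfkbia (0.403), Nfkbiz (0.188) and Il6ra (0.477), from 4, 1 and 2 UMIs, the latter 2 named after their values were seen. Of all genes, 5.98% and 15.4% did, so with 10 genes nothing is read from these counts. Its sum was 0.795 (0.622 to 1.00).

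**Figure D4:**
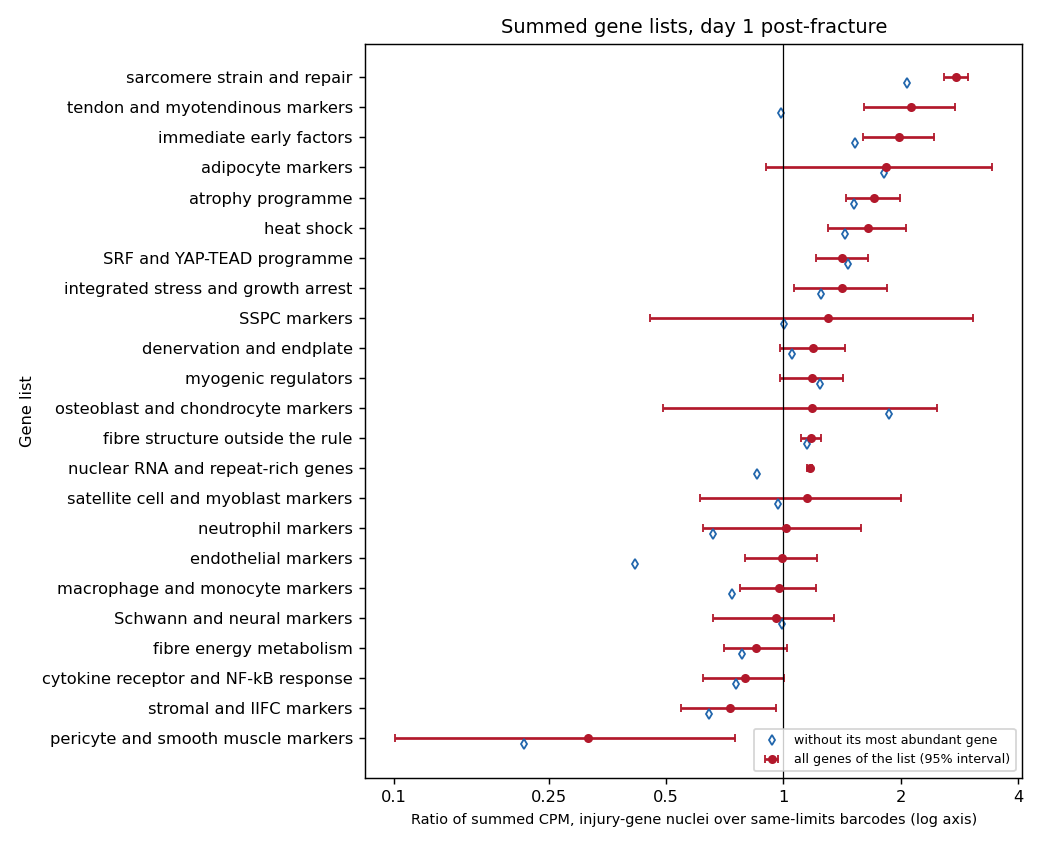
Ratio of summed CPM (log axis) of 23 gene lists, injury-gene nuclei over same-limits barcodes, with exact 95% intervals (circles) and without the gene of each list with the most UMIs (open diamonds). Sarcomere strain and repair stood at 2.77; tendon and endothelial markers stood at 0.986 and 0.416 without Itgb1 and Cdh13.

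The immediate early genes, which encode transcription factors induced within minutes of a stimulus, had 3 of 8 at a ratio of at least 2, where 5.98% of all genes did, Egr1 and, named after their values were seen, Ier3 (2.84, 1.19 to 6.11) and Fosl2 (2.45, 0.902 to 5.73). All 3 reached the filter only with the UMIs of the injury-gene nuclei, so nothing is read from the count. Over the barcodes under 200 genes, 1 of 8 had a ratio of at least 2, where 9.25% of all genes did, and 2 had one of at most 0.5. Egr1 had 30 UMIs and a ratio of 10.5 (6.05 to 18.2), but 20 of these UMIs were in 1 nucleus and 6 in another, so that 6 nuclei in all had the gene. With each gene capped at 3 UMIs per barcode, its ratio was 3.91. Both nuclei were poor in Malat1 (2.32% and 1.86% of UMIs) and had no Ankrd1 UMI. The first had 4 UMIs of Sox4 and 1 each of Atf3 and Xirp1, the second 1 each of Mustn1 and Sox4. Without Atf3 and Sox4 in the rule the ratio of Egr1 was 0.592, and with at least 500 genes per barcode no Egr1 UMI was left in the chosen nuclei. Junb (1.10, 0.510 to 2.12) and Jun (0.587, 0.117 to 1.82), the partners of Fos in AP-1, had intervals that included 1. The list without Egr1 had a sum of 1.53 (1.19 to 1.93), and the whole list one of 1.17 without Atf3 and Sox4 in the rule.

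Single nuclei also carried much of Xirp2. It was found in 78 of the 134 nuclei, 43 with at least 2 UMIs, with a median of 1 UMI, and the 4 highest nuclei, with 106, 51, 47 and 31 UMIs, held 49.8% of all. With each gene capped at 3 UMIs per barcode the ratio of Xirp2 fell from 4.35 to 1.97, while those of Flnc (3.45), Slc38a2 (3.35) and Klhl40 (4.16) stayed above 3. The highest ratio of Xirp2 under any setting was 15.2, with at least 500 genes, where 17 nuclei were left. The nucleus with 106 Xirp2 UMIs had 8 of Nes, 3 of Klhl40 and none of Ankrd1. That with 51 had 9 of Ankrd1 and 6 each of Flnc and Nrap. That with 47 had 2 of Mustn1, 11 of Nrap and no other injury gene. Flnc was spread more evenly, with 104 UMIs over 55 nuclei and 8 in the highest, and Xirp2 and Flnc occurred together in 38 nuclei.

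Atf3 was concentrated too. The 4 highest nuclei, with 15, 12, 7 and 4 UMIs, held 66.7% of its 57 UMIs. The nucleus with 15 had no UMI of Xirp2, Flnc or Nrap, 1 each of Klhl40 and Xirp1, and 2.13% of its UMIs in contractile genes, and that with 12 had no Xirp2, 2 UMIs of Flnc, 1 of Nrap and 1.06% in contractile genes. That with 7 had 9 of Xirp2 and 2 each of Flnc and Nrap, and that with 4 had 1 each of Flnc and Nrap. Nothing is read from single counts of 1 or 2 UMIs.

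**Figure D5:**
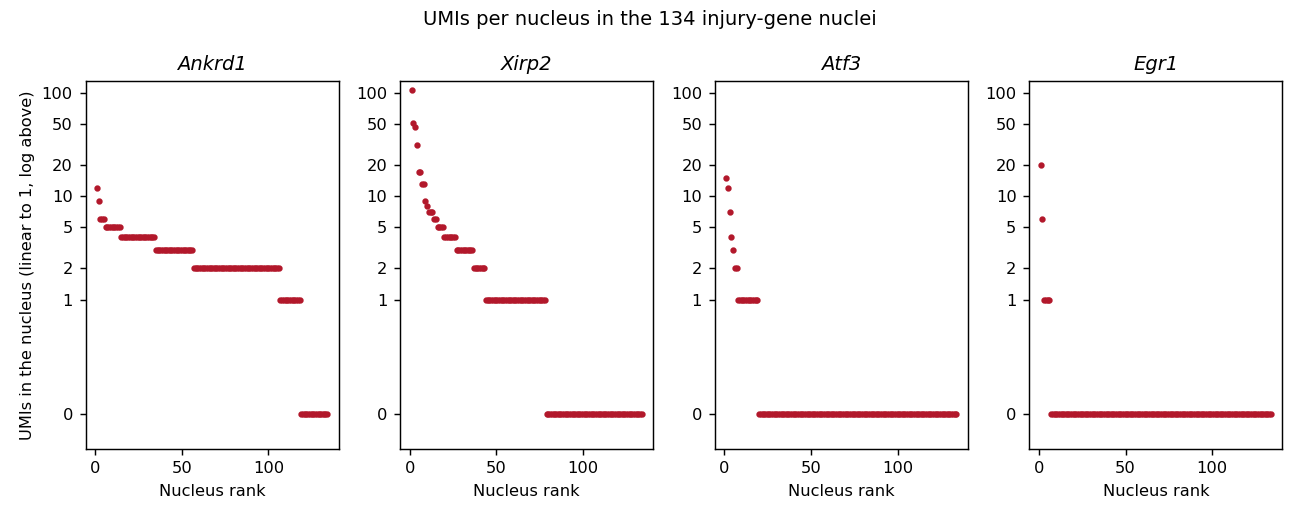
UMIs per nucleus of Ankrd1, Xirp2, Atf3 and Egr1 in the 134 injury-gene nuclei, each ordered from the highest to the lowest (vertical axis linear to 1 and logarithmic above). Ankrd1 had at most 12 UMIs per nucleus over 118 nuclei, whereas single nuclei reached 106 UMIs of Xirp2 and 20 of Egr1.

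The 16 nuclei without Ankrd1, chosen through the other 5 genes, were set beside the 118 with it. They had 18068 CPM of Xirp2 (15476 to 20970) against 4241 CPM (3774 to 4750), of which 106 and 47 of 173 UMIs were in the 2 nuclei described above. The direction rested on these 2, the other 14 having 2959 CPM (1807 to 4570). The 16 also had 27 of the 30 Egr1 UMIs, 26 of them in the 2 nuclei rich in it. Klhl40 had 11 UMIs in the 16, 1149 CPM (573 to 2056), against 10 UMIs in the 118, 142 CPM (68.0 to 261). Dmd stood at 2820 CPM (1858 to 4103) in the 16 against 6652 CPM (6063 to 7282) in the 118. Lmcd1 had 0 UMIs in the 16, which allows up to 3 UMIs or 313 CPM, against 397 CPM (264 to 574) in the 118. The share of contractile UMIs was 3.58% against 4.24% and that of Malat1 11.9% against 11.7%. In the contractile-rich barcodes, those with at least 2 injury UMIs had less Xirp2 than the injury-gene nuclei. The 48 of them with at least 2 injury UMIs had 1598 CPM of Xirp2 (1261 to 1997) against 1380 CPM (1238 to 1533) in the 462 others. They had 851 CPM of Flnc (611 to 1154) against 504 CPM (420 to 600) and 1349 CPM of Nrap (1041 to 1719) against 804 CPM (697 to 923).

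The 10 genes with the clearest lower level had few or no UMIs in the injury-gene nuclei. Lgmn, which encodes a lysosomal protease of macrophages and other cells, had 0 UMIs, where 3 UMIs (37.5 CPM) are the limit that a count of 0 allows, against 114 CPM in the same-limits barcodes, and was at least 3.03-fold lower. Sorcs3, a sortilin receptor gene, was at least 2.79-fold lower and Sema5a, a semaphorin gene, and Gm12648, a predicted gene, at least 2.49-fold lower each. Dock3, a guanine exchange factor gene, was at least 2.28-fold lower. Adgrv1, an adhesion receptor gene, had 1 UMI, Pcdh15, a protocadherin gene, a ratio of 0.276 (0.142 to 0.488), Galntl6, a glycosyltransferase-like gene, 0.254, the growth factor gene Nrg1 0.237 and the predicted gene Gm10718 0.329. Over the barcodes under 200 genes, the ratios were 0.310 for Pcdh15, 0.323 for Nrg1, 0.422 for Galntl6 and 0.982 for Gm10718. Against the contractile-rich barcodes Pcdh15 had 0.604, Nrg1 0.601 and Galntl6 0.851, and Gm10718 was on the other side of 1 (1.74, 0.851 to 3.38). Weighted for Malat1 share, the differences from the same-limits barcodes were smaller, with ratios of 0.138 for Adgrv1, 0.400 for Pcdh15, 0.427 for Galntl6, 0.454 for Nrg1 and 0.643 for Gm10718. Nrg1 had 0.587 with a mitochondrial limit of 5%. A further predicted gene, Gm10800, had 1129 of its 2273 UMIs in the nucleus with the most UMIs of the group, which held 3854.

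Apart from the tendon list, no list of markers of another cell type had a summed ratio over the same-limits barcodes whose interval lay above 1. Over the barcodes under 200 genes, the endothelial markers did (1.35, 1.10 to 1.65), as did the tendon markers (2.53, 1.96 to 3.22). Over the contractile-rich barcodes, those of macrophages (1.39, 1.08 to 1.78), satellite cells (2.90, 1.33 to 6.16), Schwann cells (2.13, 1.37 to 3.25), skeletal stem/progenitor cells (4.47, 1.14 to 18.5) and tendon (1.53, 1.14 to 2.04) did. The part of these cell types in the results was not tested. The macrophage and monocyte markers had 90 UMIs, 1124 CPM, and a summed ratio of 0.973 (0.774 to 1.21) over the same-limits barcodes, with Spp1 (51 UMIs) the gene with the most UMIs and 2 of 12 at 0. The neutrophil markers had 22 UMIs and a ratio of 1.02 (0.623 to 1.58), with Il1b, 11 UMIs in 8 nuclei, at 2.20 (1.03 to 4.28). The neutrophil ratio became 3.87 with at least 500 genes and 0.413 with at least 3 injury UMIs. The stromal and injury-induced fibrogenic cell (IIFC) markers had 56 UMIs and 0.728 (0.545 to 0.956), with Fn1 first and Col1a2 at 2 UMIs. The pericyte markers had 5 UMIs and 0.316 (0.101 to 0.752). The endothelial markers had 97 UMIs and 0.990 (0.795 to 1.22), of which 87 were Cdh13, while Pecam1 had 2 and Flt1 1. The tendon markers stood at 2.12 (1.61 to 2.76) with 56 of 69 UMIs from Itgb1, and at 0.986 (0.511 to 1.75) without it. The satellite cell and myoblast markers had 14 UMIs and 1.15 (0.611 to 2.01), 1 of them Pax7 and 2 Myod1, and the erythroid markers 0 UMIs. The Schwann (36 UMIs), adipocyte (12), osteoblast and chondrocyte (8) and skeletal stem/progenitor cell (6) markers had ratios between 0.957 and 1.83, each with an interval that included 1. By the rule no nucleus had 2 immune-gene UMIs, and 15 had 1. Doublets were neither called nor removed, and their part in these counts was not tested.

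The same rule in the day 5 post-MTI library chose 34 of 689 filtered barcodes. Day and injury differed together between the libraries, and the MTI library was far deeper, with a median of 10438 UMIs in the chosen barcodes and of 1869 in the 229 barcodes within the same limits, so the values below stand side by side only. The pooled contractile share was 2.53% against 1.18%, and the median per barcode was 1.19% against 0%. Of the 34 chosen barcodes, 25 had any UMI of the 6 contractile genes. Ankrd1, used by the rule, had 200 UMIs against 4. Xirp2 had a ratio of 5.33 (4.23 to 6.75) over the barcodes within the same limits, Hspb8 5.23 (3.14 to 8.99), Klhl40 5.12 (2.09 to 13.7), Nrap 3.72 (2.83 to 4.90), Flnc 3.00 (2.16 to 4.18), Slc6a6 2.40 (2.01 to 2.87) and Slc38a2 2.08 (1.61 to 2.67). With Cryab (2.41, 0.644 to 9.01), 8 of the 25 genes named at day 1 had a ratio of at least 2, where 5.99% of 7816 genes did. Their median was 1.22 against 0.906 for all genes, 16 being over 1 and 9 under 1, among them Egr1 (0.854, 0.387 to 1.75). The sarcomere strain and repair list stood at 1.83 (1.71 to 1.96), fiber structure at 1.96 (1.91 to 2.02), denervation and endplate at 2.03 (1.92 to 2.15), immediate early genes at 0.962 (0.816 to 1.13) and stromal markers at 0.419 (0.397 to 0.443). The endothelial markers stood at 2.36 (2.19 to 2.54), with 1156 of 1469 UMIs from Cdh13, and their part in the MTI values was not tested. The libraries had 33 barcode sequences in common, none of them among the injury-gene nuclei.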

How the data were processed

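The raw UMI counts of 2 snRNAseq libraries were used, deposited without normalization. The authors had aligned the reads, introns included, to mm10 and counted UMIs using Cell Ranger version 7.0.1. All 32285 gene identifiers are those of mouse, although the labels name a human reference. Nuclei had been sorted on Sytox-AAD staining. The gene limits of the study's methods left 5523 of 48987 day 1 barcodes and its mitochondrial and ribosomal limits 2405, holding 1202240 of 9389014 UMIs. Doublets were not removed. The study also took contaminating myogenic cells out of its data, which was not done here. The chosen nuclei, the gene lists and the alternatives were set with earlier results of these data known, and the lists overlap in part.

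UMIs were summed over the barcodes of a group and divided by the group's total (CPM). Sums were given exact Poisson intervals, shares exact Clopper-Pearson intervals and ratios of CPM exact conditional binomial intervals, all at the 95% level. They treat UMIs as independent, which UMIs of 1 nucleus are not, so they are too narrow as a measure of error between mice. Genes with at least 50 UMIs over the filtered barcodes were compared. Named were the 25 genes with the highest lower limit and the 10 with the lowest upper limit of the ratio over same-limits barcodes, without the genes of the rule, mitochondrial and ribosomal genes, the 4 genes of each list with the most UMIs, and the genes of the rule. A count of 0 was taken to allow 3 UMIs. For shares with a UMI, barcodes were thinned to 300 UMIs with a fixed seed, which left out 5 injury-gene nuclei, 255 same-limits barcodes, 6 contractile-rich barcodes and 3 over the immune limit. The alternatives were other limits of the rule, gene filters and scalings and a comparator weighted for depth; 4 were added after the data had been seen (weighting for Malat1 share, no contractile limit, a filter of 200 UMIs and a cap of 3 UMIs per gene and barcode). The ratio computation was tested on simulated data. Gene positions came from GENCODE on mm10 and upstream sequences from RefSeq on GRCm38.p6. The computations used pandas 2.3.3, scipy 1.17.1 and numpy 2.4.6 under Python 3.11.15. Some genes of the lists are not reported here.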

Additional observations from a re-analysis of the deposited data

Results flagged for a closer look

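Golgb1, which encodes a Golgi matrix protein, and Lmcd1 differed in direction between the libraries under the same rule. Golgb1 had a ratio of 2.95 (2.03 to 4.21) over same-limits barcodes at day 1 post-fracture and 0.562 (0.412 to 0.754) at day 5 post-MTI. Lmcd1 had 3.01 (1.90 to 4.64) and 0.535 (0.277 to 0.966). The difference was not tested, since each library is 1 pool and day, injury and depth cannot be told apart.

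Injury genes were also found in barcodes that the rule left out. The 510 filtered barcodes over the contractile limit had 768 CPM (672 to 874) of the 6 injury genes, above the 399 CPM (385 to 415) of the barcodes under 200 genes, and 48 of them had at least 2 injury UMIs. The source of these UMIs was not tested.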

How the results depend on the processing

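The number of injury-gene nuclei was 134 and became 82 with at least 3 injury UMIs, 248 with a mitochondrial limit of 5%, 17 with at least 500 genes, 62 with a contractile limit of 4% and 50 with at least 2 different injury genes. The number of genes with a ratio of at least 2 was 236 over same-limits barcodes, 208 over all other filtered barcodes and 365 over barcodes under 200 genes. In this order, it became 60, 24 and 77 with at least 500 genes, 500, 507 and 645 with at least 2 different injury genes, 726, 760 and 1005 with a filter of 20 UMIs, 3035, 3508 and 3629 without a filter and 25, 19 and 74 with a filter of 200 UMIs. The first 2 became 506 and 365 with a contractile limit of 4% and 118 and 121 without one. With at least 3 injury UMIs the second was 328, and with a mitochondrial limit of 5% the second and the third were 315 and 602. The other settings left these counts within 1.5 times. Of 455 ratios of named genes under the alternatives, 398 stayed within their interval, and 3 crossed 1. These were Egr1 (0.592 without Atf3 and Sox4, 0 with at least 500 genes) and Malat1 (0.786 with the cap of 3 UMIs, which removes nearly all of its UMIs). In 10 cases, of 8 genes, a ratio of at least 2 fell below 2, Bclaf1 to 1.86 with a mitochondrial limit of 5% and 1.77 without a contractile limit and Gnl3 to 1.87 without Atf3 and Sox4 among them. Other ratios rose with at least 500 genes, those of Hspb8 and Cryab to 20.3, Ywhaz to 17.4, Xirp2 to 15.2 and Sqstm1 to 9.68. The sum of the strain and repair list was 5.33 in that setting. Of 311 summed list ratios, 254 stayed within their interval, and 40 crossed 1, 17 of them also leaving it. Among lists whose interval did not include 1, these were fiber structure (0.979 with at least 2 different genes, 0.903 weighted for Malat1 share), nuclear RNA (0.946 weighted for Malat1 share, 0.842 with the cap) and stromal markers (1.23 with at least 500 genes). The sum of the strain and repair list (2.77) was passed by adipocyte and immediate early sums with a contractile limit of 4% (3.28 and 2.80 against 2.55) and with at least 2 different genes (4.13 and 3.46 against 3.37), by tendon markers with the cap (2.03 against 1.97) and by adipocyte markers (1.98 against 1.97) when weighted for Malat1 share. The erythroid markers, with 0 UMIs in the 134 nuclei, had 1.48 with a mitochondrial limit of 5%. The causes were not tested. No paired analysis was possible because each condition is 1 library, and for the same reason no replicate could be left out. With 80083 UMIs, a gene under 37.5 CPM in the injury-gene nuclei could not be told from 0.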
